A study of Mus musculus with 6 samples.

Results

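The G1 cyclins, their kinases and the inhibitors that hold a cell before S phase were examined as a set of 10 named genes, Ccnd1, Ccnd2, Ccnd3, Cdk4, Cdk6, Cdkn1a, Cdkn1b, Cdkn2c, Rb1 and Trp53, of the 18193 genes that the array's probe-gene table named. The set was chosen by name, and every probe set paired with a single one of these symbols was taken. This gave 26 probe sets for 9 of the genes, and Trp53 was not analysed here. Each gene is represented by the probe set that was brightest on average across the 6 arrays, and all 9 main probe sets lay at or above the detection floor, the 40th percentile of all probe sets of an array, on all 6 arrays.

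The samples were mouse lung cells isolated by fluorescence-activated cell sorting (FACS), with 3 biological replicates per population and 1 Affymetrix 3' expression array for each. The adult samples were Lyz2+/EpCAM+ cells from adult lungs, which the series calls alveolar type II (ATII) cells. The samples of embryonic day 18 (E18) were Muc1+/Pdpn+ cells from fetal lungs, which the series calls bipotent progenitors, the cells that give rise to both alveolar epithelial types. Strain, sex and whether animals were pooled are not given in the sources used here, and age, sorting scheme and cell population differ together between the groups. Differences are log2 adult minus E18, so a positive value means a higher signal in the adult arrays.

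Growth signals raise the D-type cyclins, which bind and activate the kinases Cdk4 and Cdk6. These complexes phosphorylate the retinoblastoma protein Rb1 and so release the E2F factors that switch on genes for DNA replication. Proteins of the INK4 family, among them Cdkn2c, bind Cdk4 and Cdk6 directly, while the CIP/KIP proteins Cdkn1a and Cdkn1b bind whole cyclin-kinase complexes, and p53 is a well known activator of Cdkn1a. In the lung, type II cells are mostly out of cycle in the healthy adult and can re-enter it after injury.

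The arrays differed in ways that the groups do not explain, and these touch the results below. Median probe set signals ran from 70.2 to 110 for adult replicates and from 87.2 to 112 for E18 replicates. Log2 signals of the tested genes correlated at 0.921 to 0.983 between E18 arrays and at 0.777 to 0.913 between adult arrays. Between an adult and an E18 array the correlations were 0.761 to 0.841, so the least alike adult pair lay within that range. The 12 poly-A control probe sets averaged log2 14.08 in adult replicate 3 and 13.57 in E18 replicate 3, against 6.65 to 9.42 in the other arrays, an apparent batch that no label names. Adult replicate 3 also stood apart in its cell markers. The summed signal of 8 epithelial markers was 3475, 4090 and 47427 in adult replicates 1, 2 and 3, against 22832, 25256 and 26613 in E18 replicates 1, 2 and 3. That of 10 leukocyte markers was 63436, 53976 and 18676 in the adult arrays, against 10014, 8559 and 16554 in the E18 arrays. Adult replicates 1 and 2 thus had the lowest epithelial sums of the 6 arrays. The epithelial list includes Epcam and Muc1, by which the adult and the E18 cells were sorted. The 9 type II cell markers on the array summed to 46850, 55709 and 77130 for the adult replicates, against 36181 to 55949 for the E18 replicates. Nkx2-1, a transcription factor of lung epithelium, was under the floor in all E18 arrays and in part of the adult arrays, and it was not tested.

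Promoter windows of 300 bases around an annotated transcription start (RefSeq, build GRCm38.p6), most of each upstream of the start, were found for 6 of the 9 measured genes, Ccnd3, Cdk4, Cdk6, Cdkn1a, Cdkn1b and Cdkn2c, with 9 windows in all. The windows of a kinase and an inhibitor are shown, because Cdk4 and Cdkn1a were members whose arrays separated the groups in opposite directions. In the Cdk4 window (chr10:127063285-127063584, plus strand) the capitals mark 4 copies of CACGTG, the E-box hexamer, and in the Cdkn1a window at the more upstream of its listed starts (chr17:29090729-29091028, plus strand) they mark 2 copies of ACATGT, a core found in p53 half-sites.
Cdk4: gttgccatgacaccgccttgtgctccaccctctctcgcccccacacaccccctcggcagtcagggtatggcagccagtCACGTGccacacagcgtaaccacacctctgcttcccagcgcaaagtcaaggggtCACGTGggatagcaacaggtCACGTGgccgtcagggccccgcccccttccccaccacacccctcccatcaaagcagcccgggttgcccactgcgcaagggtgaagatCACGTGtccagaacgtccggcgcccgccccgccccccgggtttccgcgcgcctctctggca
Cdkn1a: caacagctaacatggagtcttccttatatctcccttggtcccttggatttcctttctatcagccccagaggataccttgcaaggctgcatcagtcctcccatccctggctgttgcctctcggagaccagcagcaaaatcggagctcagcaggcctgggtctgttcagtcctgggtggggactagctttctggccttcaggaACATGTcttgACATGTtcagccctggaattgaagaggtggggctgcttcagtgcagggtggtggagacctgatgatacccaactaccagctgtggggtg
The E-boxes began 172, 118, 98 and 11 bases before the Cdk4 start, and the ACATGT copies began 49 and 39 bases before that Cdkn1a start. Both hexamers read the same on both strands. At least 1 E-box was present in 7.15% of all 32851 windows of this length and at least 4 in 0.0244%, while at least 1 ACATGT was present in 5.28% and at least 2 in 0.329%. The motifs were chosen after the windows had been read, and the 4 and 2 copies are the counts of the windows shown. These shares are therefore a description and not a test. The E2F letters TTTCCCGC, TTTCGCGC, TTTGGCGC or TTTGCCGC, searched on both strands, were in none of the 9 windows and in 2.26% of all windows. The SP1 letters GGGCGG, searched likewise, were present 3 times in the Cdk4 window, 0 times in the Cdkn1a window shown and 2 times in the other Cdkn1a window, and were present in 35.7% of all windows. These are matches of letters and not shown binding sites.

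Of the 9 genes tested, Ccnd2 rose in the adult arrays and the other 8 did not pass an adjusted p under 0.05 in limma, where p-values were adjusted over all 13335 genes tested. That is 1 of 9, against 5.98% of all genes (1.41% higher and 4.57% lower in adult). For 5 of the 9 genes every adult array lay on one side of every E18 array, a pattern shown by 28.9% of all genes. These were Ccnd2, Cdkn1a and Rb1 on the higher side (10.1% of all genes) and Cdk4 and Cdk6 on the lower side (18.8% of all genes). Before adjustment 2 of the 9, Ccnd2 and Cdk4, had p under 0.05, against 21.6% of all genes. The median difference over the 9 genes was -0.37, against -0.17 over all genes tested, and 3 genes had positive and 6 negative differences. With other settings Ccnd2 was again the 1 member called, at backgrounds of 5.36% after quantile normalization, 5.51% with median centring, 3.88% without a filter, 4.62% with a filter at the 20th percentile, 6.49% with values raised to the floor, 5.5% with probe sets averaged, 5.29% without the variance trend and 6.73% with the third replicates as a block. It was also the 1 member called without adult replicate 1 (background 4.29%) and without adult replicate 3 (20.8%). None of the 9 was called with E18 replicates 1 and 2 averaged (0.472%) or with the replicate number as a block (3.69%), where the limma adjusted p of Ccnd2 was 0.14 and 0.0605. In bulk samples such as these, fewer cells of a type and less RNA per cell cannot be told apart.

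**Figure D1:**
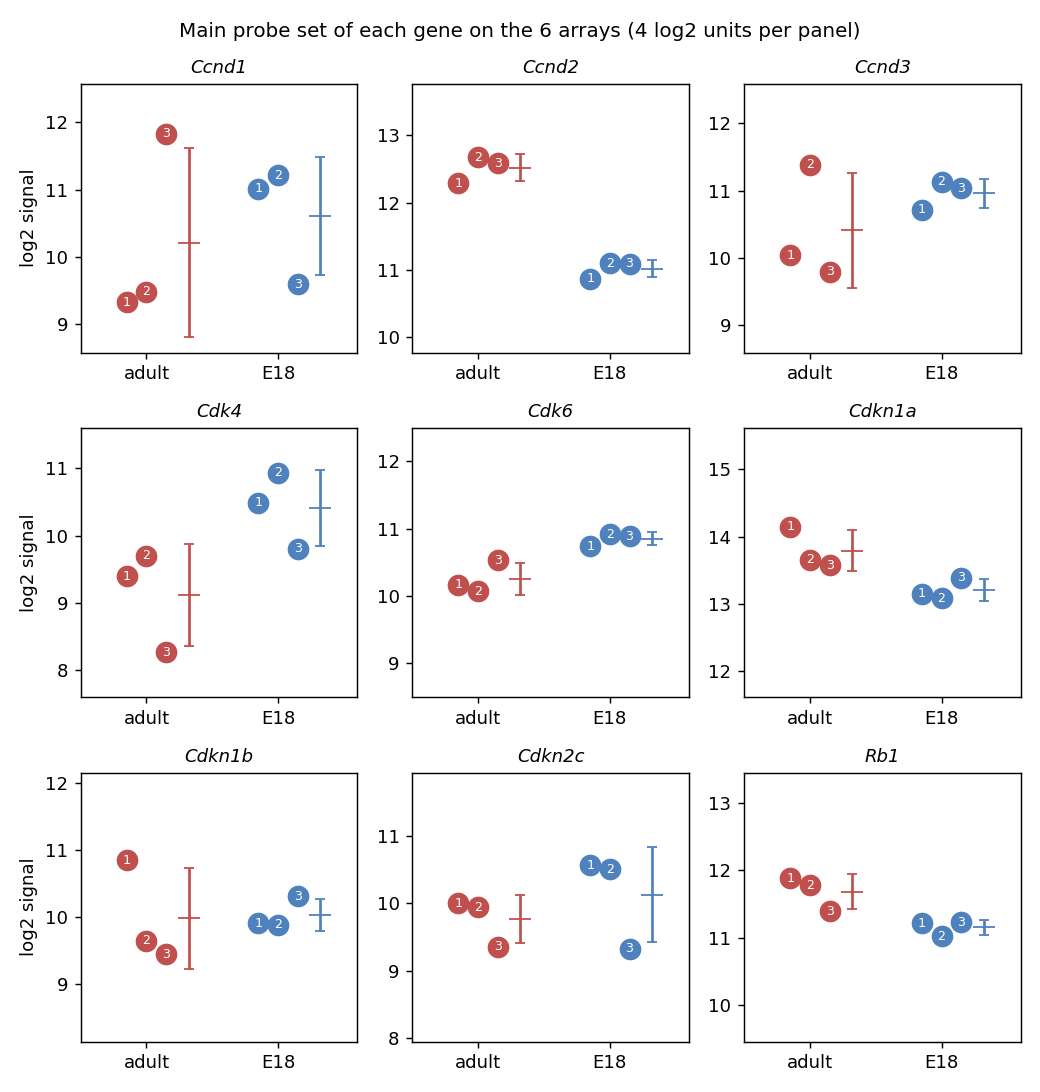
Log2 signal of the main probe set (y axis, 4 log2 units in every panel) of the 9 measured genes in adult and E18 arrays, with points numbered by replicate and bars giving mean ± SD (n = 3 per group). Ccnd2 is the gene with its adult mean at 12.51 and its E18 mean at 11.02, while Ccnd1 has adult replicate 3 at 11.83 and E18 replicate 3 at 9.60, each far from its group.

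Ccnd2, the D cyclin encoded by a gene known as a target of mitogen signalling in many cell types, had log2 signals of 12.29, 12.67 and 12.59 in adult replicates 1, 2 and 3, against 10.87, 11.10 and 11.09 in E18 replicates 1, 2 and 3. All adult arrays were above all E18 arrays, and the values within each group lay close together. The difference was 1.50 (SE 0.26, 95% interval 0.89 to 2.10), a 2.82-fold higher signal in adult, with a limma adjusted p of 0.0213. It was 1.50 in replicates 1 and 2 alone (adjusted p = 0.0258 in limma) and 1.50 between the third replicates, 1 array each. Leaving out single arrays kept the difference between 1.42 and 1.61, but it ended the call for 4 of the 6 arrays. With adult replicate 2 left out the limma adjusted p was 0.0778 (1.69% of all genes called). With E18 replicate 1, 2 or 3 left out it was 0.152, 0.13 or 0.053 (0.517%, 0.495% or 3.79% of all genes called).

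Leukocytes also express Ccnd2, and leukocyte markers moved with it in part. Of 10 such markers 3 rose, 0 fell and 7 did not pass, with a median difference of 3.78, and Cd3e was under the floor in all E18 arrays. The count rested on single arrays. All 10 rose with adult replicate 3 left out, 2 with adult replicate 2 left out and 1 with E18 replicate 1 or 2 left out, and all 10 rose in replicates 1 and 2 alone (median difference 5.03). Between the third replicates the median difference of the 10 was 0.92. There Ptprc, which carries most of both leukocyte sums, was 13.81 in adult against 13.84 in E18. The markers that rose were higher in that adult array, Klrd1 at 11.10 against 6.83, Cd2 at 8.70 against 5.50 and Cd28 at 8.49 against 6.35. Lower in it were Ms4a1 at 8.74 against 9.59, Cd79b at 8.73 against 8.97 and Nkg7 at 7.43 against 7.49. Cd3e, Cd3g and Cd79a, which did not pass, were higher in it. Of 9 macrophage markers 0 rose, 0 fell and 9 did not pass, with a median difference of -0.14. Their summed signal was 48970 to 82683 in the adult arrays against 28388 to 50776 in the E18 arrays. Csf1r and Chil3 carried most of these sums. The part of these cells in the Ccnd2 difference was not tested.

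All 7 Ccnd2 probe sets were higher in adult, by 0.97 to 2.36 on the log2 scale. Tested each on its own and adjusted over 28104 probe sets, 3 of the 7 rose (3.96% of all probe sets were called, 0.904% higher in adult). These were 1455956_x_at (2.36, adjusted p = 0.0155 in limma), 1434745_at (1.61, adjusted p = 0.0226) and the main probe set 1448229_s_at (1.50, adjusted p = 0.025). On the platform the endings _s_at and _x_at mark probe sets whose probes can match more than 1 transcript, whereas 1434745_at has the ending of a probe set designed to be unique. The other probe sets disagreed about adult replicate 1. In 1416122_at, 1430127_a_at and 1416123_at, adult replicate 1 stood -0.24, -0.40 and 0.07 from the E18 mean of the same probe set, while adult replicates 2 and 3 stood 1.59 to 2.27 above it. The dimmer 1416124_at was higher by 0.97, without overlap. In the 3 probe sets that passed, adult replicate 1 stood 1.27 to 2.78 above the E18 mean. Which parts of the transcript these probe sets cover was not examined.

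**Figure D2:**
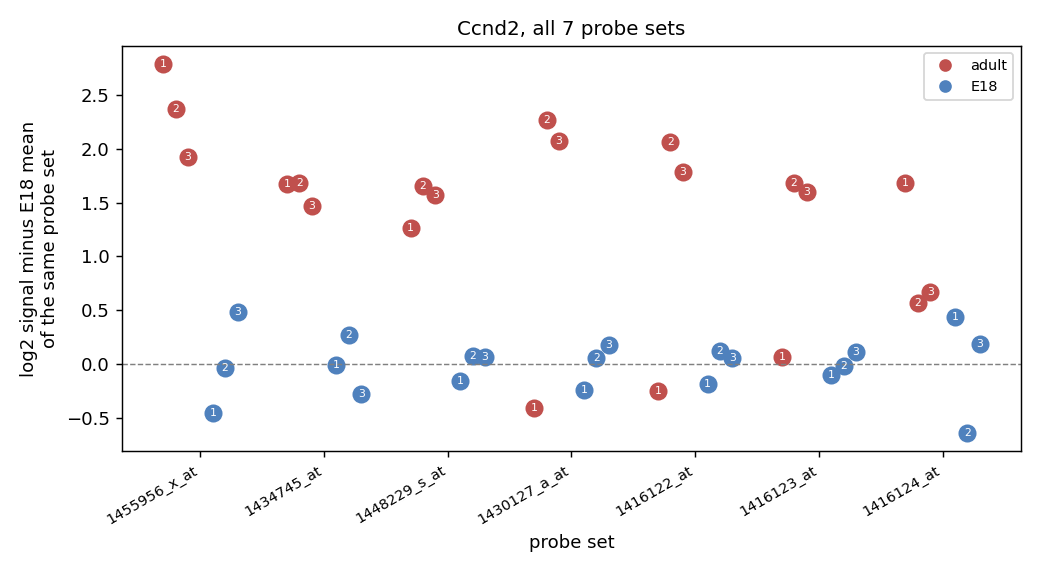
Log2 signal minus the E18 mean of the same probe set (y axis) for the 7 Ccnd2 probe sets (x axis), adult and E18 arrays side by side and numbered by replicate. Adult replicates 2 and 3 lie above all E18 arrays in every probe set, and adult replicate 1 lies among or just below the E18 arrays in 1430127_a_at, 1416122_at and 1416123_at.

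Ccnd1, a D cyclin gene often amplified in epithelial cancers, did not separate the groups. It had log2 signals of 9.32, 9.48 and 11.83 in adult replicates 1, 2 and 3, against 11.01, 11.21 and 9.60 in E18 replicates 1, 2 and 3. Adult replicate 3 was the highest of all 6 arrays, and E18 replicate 3 lay next to adult replicates 1 and 2. The difference was -0.40 with an interval of -2.12 to 1.33 (SE 0.74, limma adjusted p = 0.795), the widest of the 9. In replicates 1 and 2 alone it was -1.71 (SE 0.26, limma adjusted p = 0.0139), and between the third replicates it was 2.23, so the direction turned between the sets of arrays. Opposite signs in these sets were found for 3 of the 9 genes, Ccnd1, Cdkn1b and Cdkn2c, and for 45.1% of all genes. In replicates 1 and 2 alone 3 of the 9 passed, Ccnd1 and Cdk4 lower in adult (16.5% of all genes) and Ccnd2 higher (6.01%), where 22.5% of all genes passed in either direction. Over the remaining 5 arrays the Ccnd1 difference was -1.20 without adult replicate 3 and 0.049 without adult replicate 1.

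The Ccnd1 probe sets also turned between these arrays. The differences of the 3 probe sets were -1.71, -2.11 and -0.47 in replicates 1 and 2, and 2.23, 2.55 and 2.92 between the third replicates. The array with the highest Ccnd1 signal, adult replicate 3, was also the one with the highest epithelial sum (47427), whereas E18 replicate 3 had low Ccnd1 and an epithelial sum (26613) like that of the other E18 arrays. The summed signal of 10 endothelial markers was 2626, 3295 and 3816 in the adult arrays, against 19038, 20208 and 5724 in E18 replicates 1, 2 and 3, lowest among the E18 arrays in the replicate with the lowest Ccnd1. Kdr and Vwf carried the sum of adult replicate 3, and the median departure of the 10 markers from their own means was -1.01, -0.85 and -2.76 in adult replicates 1, 2 and 3, lowest in the array with the highest Ccnd1. Of these endothelial markers 3 fell, 0 rose and 7 did not pass. Tie1, among those that fell, was under the floor in all adult arrays and passed the filter only through the E18 arrays. With single arrays left out 0 to 6 of them fell, 6 without adult replicate 3. Of the 7 epithelial markers tested 0 rose, 0 fell and 7 did not pass, but all 7 fell with adult replicate 3 left out (median difference -2.91) and in replicates 1 and 2 alone (-2.89). The part of either cell type in the Ccnd1 signal was not tested.

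**Figure D3:**
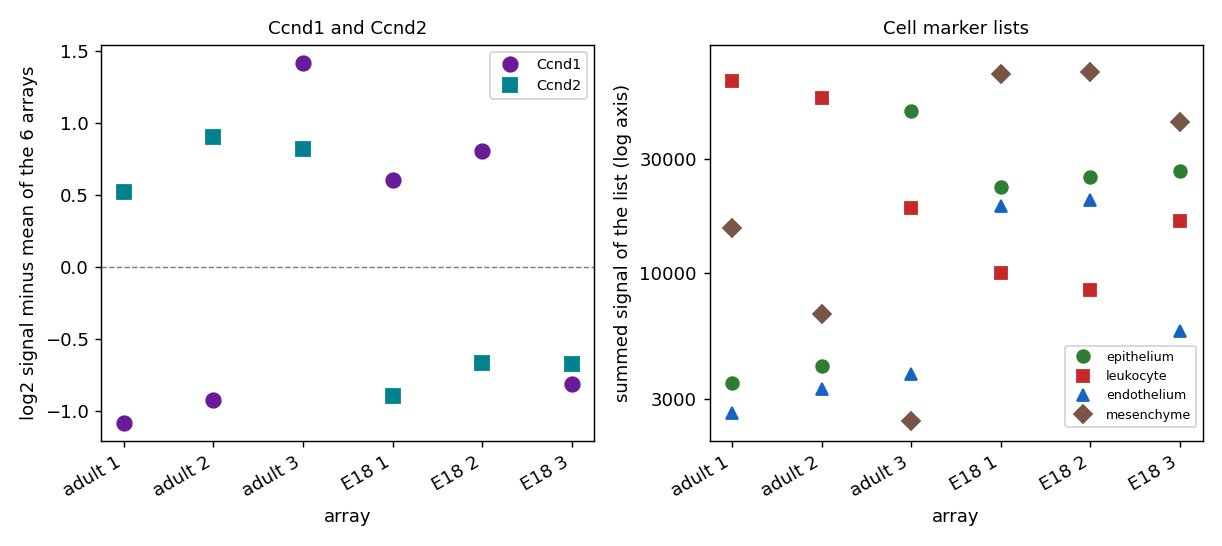
Left, log2 signal of Ccnd1 and Ccnd2 minus the gene's mean over the 6 arrays (y axis) by array. Right, summed signal of the epithelial, leukocyte, endothelial and mesenchymal marker lists (y axis, log scale) by array. Ccnd1 peaks in adult replicate 3, where the epithelial sum is 47427, and Ccnd2 is above its mean in each adult array. In adult replicate 3 Ptprc carries most of the leukocyte sum, and Kdr and Vwf most of the endothelial sum.

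Ccnd3, a D cyclin that developing mouse lymphocytes need, had log2 signals of 10.04, 11.39 and 9.80 in the adult arrays, against 10.71, 11.13 and 11.04 in the E18 arrays. Adult replicate 2 was the highest array and the other adult arrays the lowest, so the groups overlapped. The difference was -0.55 (95% interval -1.59 to 0.49, limma adjusted p = 0.527). The other 2 probe sets differed by -0.12 and 0.43, so the sign was not shared, and with probe sets averaged the difference was -0.082.

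Cdk4, a kinase partner of the D cyclins, had log2 signals of 9.39, 9.70 and 8.26 in the adult arrays, against 10.49, 10.93 and 9.80 in the E18 arrays. The groups did not overlap, although adult replicate 2 and E18 replicate 3 lay close together. The difference was -1.29 (SE 0.48, 95% interval -2.40 to -0.18), a 2.44-fold lower signal in adult that did not pass after adjustment over all genes (limma adjusted p = 0.171). All 3 Cdk4 probe sets were lower in adult, with differences of -1.29, -1.44 and -1.74, and the groups overlapped in the other 2. The difference of the main probe set was -1.16 in replicates 1 and 2 alone (limma adjusted p = 0.0499) and -1.54 between the third replicates. The third replicate was the lowest of each group.

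Cdk6, the other D cyclin kinase, had log2 signals of 10.16, 10.07 and 10.53 in the adult arrays, against 10.74, 10.91 and 10.89 in the E18 arrays. Every adult array was below every E18 array, by a difference of -0.59 (95% interval -1.23 to 0.05, limma adjusted p = 0.262). With probe sets averaged it was -0.93. A second probe set above the floor gave -0.78 with no overlap, and the third did not reach the floor on any array.

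The CIP/KIP inhibitor Cdkn1a had log2 signals of 14.14, 13.66 and 13.57 in the adult arrays, against 13.15, 13.08 and 13.39 in the E18 arrays. Its signals were high in all 6 arrays and did not overlap between groups. The difference was 0.59 (95% interval -0.05 to 1.22, limma adjusted p = 0.265), or 1.50-fold. It was 0.13 after quantile normalization (limma adjusted p = 0.715) and 0.85 with probe sets averaged (limma adjusted p = 0.0852). The second Cdkn1a probe set read 12.16, 13.17 and 12.65 in the adult arrays, against 11.28, 11.45 and 11.88 in the E18 arrays, also without overlap, with a difference of 1.12 (limma adjusted p = 0.132 over all probe sets). The main probe set was higher by 0.79 in replicates 1 and 2 and by 0.19 between the third replicates, and the second by 1.30 and 0.77. The 2 copies of ACATGT shown above lie near 1 of 2 listed Cdkn1a starts, and which start the signals came from was not examined.

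Cdkn1b, the inhibitor linked to quiescence in many tissues, had log2 signals of 10.84, 9.65 and 9.45 in the adult arrays, against 9.91, 9.89 and 10.31 in the E18 arrays. Adult replicate 1 was the highest array and the other adult arrays the lowest. The difference was -0.05 (95% interval -1.03 to 0.93, limma adjusted p = 0.954), and its sign turned under other scalings (0.055 for quantile-normalized and 0.10 for median-centred arrays). A dimmer second probe set was higher in adult by 1.06 without overlap and did not pass (limma adjusted p = 0.305 over all probe sets).

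Cdkn2c, the INK4 inhibitor of the set, was measured by 1 probe set. It had log2 signals of 9.9999, 9.94 and 9.36 in the adult arrays, against 10.57, 10.51 and 9.32 in the E18 arrays. In both groups the third replicate was the lowest, and these lowest values differed by 0.04. The difference over all arrays was -0.37 (95% interval -1.34 to 0.61, limma adjusted p = 0.661).

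Rb1, the pocket protein that the D cyclin kinases phosphorylate, had log2 signals of 11.89, 11.78 and 11.40 in the adult arrays, against 11.22, 11.02 and 11.23 in the E18 arrays. The groups did not overlap, and the gap was smallest between the third replicates. The difference was 0.53 (95% interval -0.10 to 1.16, limma adjusted p = 0.304), and 0.28 with probe sets averaged. A second Rb1 probe set reached the floor on 1 array only, and the averaged value includes it.

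**Figure D4:**
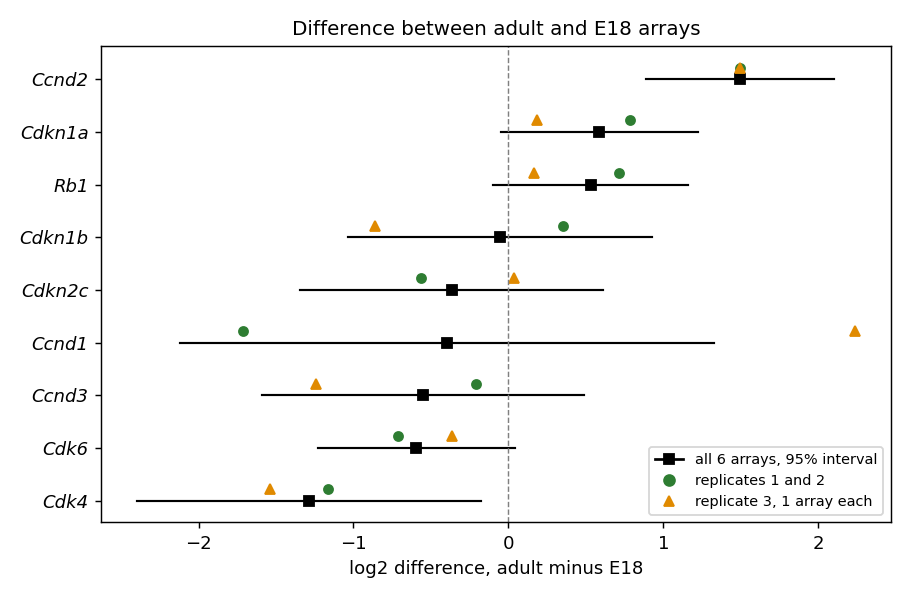
Log2 difference, adult minus E18 (x axis), of the 9 genes (y axis), with squares and lines for the estimate and 95% interval over all 6 arrays, circles for replicates 1 and 2, and triangles for replicate 3 with 1 array per group. The Ccnd2 marks coincide at 1.50, and those of Ccnd1 lie at -1.71 and 2.23 on either side of 0.

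The spread between replicates differed among the genes. For Ccnd1 the SD was 1.40 among adult and 0.88 among E18 arrays, for Cdkn1b 0.75 and 0.24, and for Ccnd3 0.86 and 0.22 (n = 3 each). For Ccnd2 it was 0.20 and 0.13 and for Cdk6 0.24 and 0.09. The median SD over the 9 genes was 0.35 for adult and 0.22 for E18, against 0.62 and 0.29 over all genes tested. The SEs ran from 0.26 to 0.74 among the 9. Differences of the size seen for Cdkn1a, Rb1 and Cdk6 were not separable from 0 by this design, before or after adjustment. That does not show that these genes were alike in both populations.

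The genes whose profile over the 6 arrays lay closest to Ccnd2 were sought by the root mean square distance of log2 values centred on each gene's mean. The nearest were Tapbpl, a peptide editor for MHC class I, at a distance of 0.11 log2 units, Zfp958 at 0.13 and Lypd6b at 0.14. Tapbpl differed by 1.54 (9.86 ± 0.24 in adult and 8.32 ± 0.24 in E18, SD, n = 3 each, limma adjusted p = 0.0321). Lypd6b differed by 1.51 (limma adjusted p = 0.0348), and Zfp958, at or above the floor on 3 of the 6 arrays, by 1.33 (limma adjusted p = 0.132). Zfp958 reached the floor in no E18 array and passed the filter only through the adult arrays. Since the distance was computed on the same arrays, these likenesses are a description.

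The other genes of the pathway were read from lists compiled with earlier results of these data known, beside the 1.41% of all genes called higher and the 4.57% called lower. Of 12 E2F, DP and pocket protein genes 0 rose, 1 fell and 11 missed the threshold (median difference -0.87). The gene that fell was E2f7, a repressor of E2F targets made in S phase, at 7.08, 5.78 and 7.27 in the adult arrays, against 9.85, 9.92 and 9.65 in the E18 arrays (-3.10, limma adjusted p = 0.012). The brightest of the list by mean, E2f5 and E2f2, had differences of -0.43 and -1.48 and did not pass. Of 10 genes for cyclin E, Cdk2 and kinase activation 0 rose, 3 fell and 7 missed the threshold (median difference -0.94). Ccne2, a cyclin of the step into S phase, fell by 2.53, its kinase Cdk2 fell by 1.80 and the phosphatase Cdc25a, which activates Cdk2, fell by 1.30 on the log2 scale (limma adjusted p = 0.0118, 0.0226 and 0.033). With all probe sets of a gene averaged, Cdk2 stood at a difference of 0.03, so its direction depends on the probe sets used.

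Of the 4 other inhibitors 3 were tested, of which 0 rose, 1 fell and 2 did not pass, and Cdkn2a did not reach the floor on any array. Cdkn2b, an INK4 protein induced by TGF-beta, stood at 9.02, 7.82 and 8.95 in the adult arrays, against 10.53, 10.49 and 10.33 in the E18 arrays (-1.86, limma adjusted p = 0.0364). Cdkn1c, the imprinted member of the CIP/KIP family, stood at 9.55, 7.75 and 11.73 in the adult arrays, against 12.25, 12.58 and 11.58 in the E18 arrays, and did not pass (-2.46, limma adjusted p = 0.167). Its value in adult replicate 3 lay among the E18 values, and without that array the limma adjusted p was 0.00758. Cdkn2d had a difference of 0.77 and did not pass (limma adjusted p = 0.354), and without adult replicate 3 its limma adjusted p was 0.024. Of 5 genes for D cyclin turnover and kinase assembly 0 rose, 0 fell and 5 missed the threshold (median difference 0.29), among them the chaperone partner Cdc37 (-0.63) and the kinase Gsk3b (-0.50), which marks cyclin D1 for export and decay.

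Of 8 p53 regulators 0 rose, 0 fell and 8 missed the threshold (median difference -0.27), among them the deubiquitinase Usp7 (0.64) and Trp53bp1 (0.36). Of 20 p53 target genes 1 rose, 1 fell and 18 missed the threshold (median difference 0.05). Pmaip1, a death-promoting BH3 protein, stood at 10.69, 11.20 and 11.38 in the adult arrays, against 9.91, 9.74 and 9.73 in the E18 arrays (1.30, limma adjusted p = 0.0492). Perp, a desmosome protein of epithelia, stood at 8.62, 8.30 and 10.09 in the adult arrays, against 11.51, 11.57 and 11.47 in the E18 arrays (-2.51, limma adjusted p = 0.0265), with its highest adult value in the array with the highest epithelial sum.

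Of 13 S phase genes controlled by E2F 0 rose, 1 fell and 12 missed the threshold (median difference -0.76). The large subunit of ribonucleotide reductase, Rrm1, fell by 1.50 (limma adjusted p = 0.0252), while the replication clamp Pcna differed by 0.11 and the licensing factor Cdt1 by 0.15 without passing, both of which changed sign under some other settings. Of 13 mitotic genes 0 rose, 9 fell and 4 missed the threshold (median difference -1.98). The largest decreases among those that passed were in the checkpoint kinase Bub1 (fell by 3.18, limma adjusted p = 0.0142), Plk1 (fell by 2.84, limma adjusted p = 0.0213), Cdk1 (fell by 2.60, limma adjusted p = 0.0126) and Aurkb (fell by 2.47, limma adjusted p = 0.0159). The mitotic median was -2.26 in replicates 1 and 2 and -1.15 between the third replicates. Mesenchymal markers fell in the same arrays, 8 of 10 passing with sums of 15462, 6770 and 2432 in the adult arrays, against 67747, 69440 and 42763 in the E18 arrays, and type I cell markers fell for 5 of 10, with sums of 15110 to 23256 in adult against 65261 to 94116 in E18. The type I list includes Pdpn, by which the E18 cells were sorted, and Pdpn was among those that fell. Mesothelial markers fell for 3 of 5, with sums of 859 to 7309 in adult against 8449 to 11648 in E18. Wt1, among those that fell, reached the floor in no adult array and passed the filter only through the E18 arrays. Raising low values to the floor left 2 of the 5 falling. With single arrays left out 1 to 8 of the mesenchymal, 2 to 9 of the type I and 0 to 4 of the mesothelial markers fell. The lowest counts were 1 mesenchymal and 2 type I markers without E18 replicate 1 or 2, and 0 mesothelial markers without E18 replicate 2. The part of these cells in the mitotic decreases was not tested.

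The calls in these lists rested on few arrays. Of the mitotic genes 10 fell with adult replicate 3 left out, 4 with adult replicate 1 or E18 replicate 3 left out, and 0 with adult replicate 2, E18 replicate 1 or E18 replicate 2 left out. The calls of E2f7 and Ccne2 were lost when E18 replicate 1 or 2 was left out, those of Cdk2, Bub1, Cdk1 and Aurkb also without adult replicate 2, and those of Cdc25a, Rrm1 and Pmaip1 without adult replicate 2 or any E18 array. The calls of Cdkn2b and Perp held only without adult replicate 3, and that of Plk1 without adult replicate 3 or E18 replicate 3. The highest limma adjusted p among these fits was 0.236, for Pmaip1, and no direction of a called gene turned in them. With the replicate number as a block 2 of the 13 mitotic genes fell, and the calls of Cdk2, Cdc25a, Cdkn2b, Rrm1, Pmaip1, Plk1 and Aurkb were lost. With E18 replicates 1 and 2 averaged 0 of the 13 fell, and none of the named genes of these lists was called. The call of Pmaip1 held in 3 of 11 other settings, those of quantile normalization, low values raised to the floor and averaged probe sets.

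**Figure D5:**
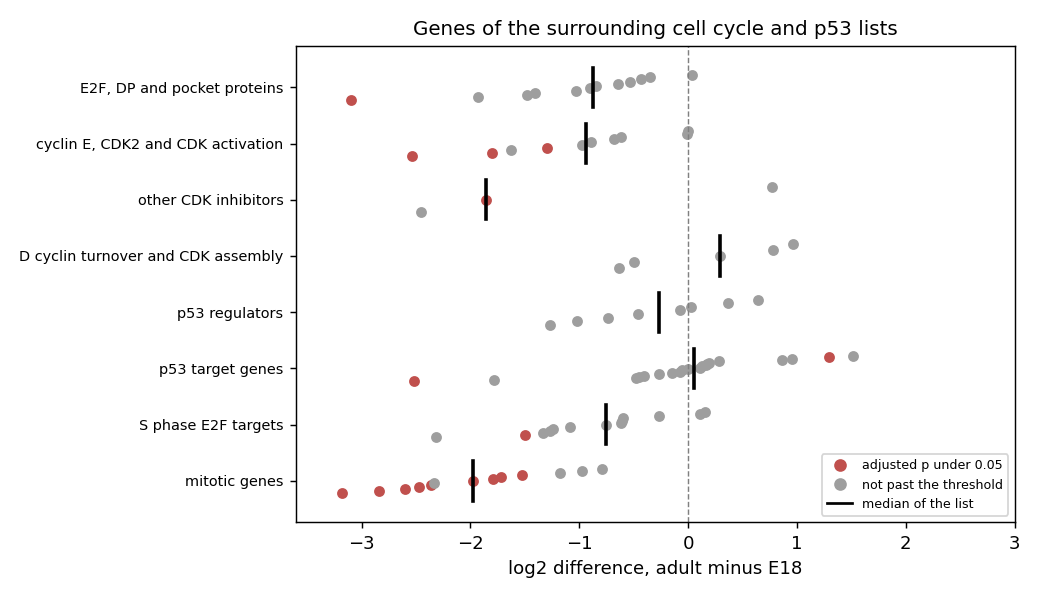
Log2 difference, adult minus E18 (x axis), of each tested gene in the 8 surrounding lists (y axis), coloured by whether the limma adjusted p was under 0.05, with a line at each list's median. All 13 mitotic genes lie below 0 and 9 passed, whereas p53 targets centre near 0 with a median of 0.05.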

How the data were processed

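Signal intensity was measured in 6 samples, 3 adult and 3 E18, on 1 array each. Per the labels' protocols, total RNA was amplified in a two-cycle cDNA synthesis and labelled with biotin. The authors deposited 1 linear signal intensity for each probe set. The submitters' processing notes name Affymetrix Expression Console and MAS5, and each array's mean without its lowest and highest 2% was 500.003 or 500.004. Here the values were log2 transformed without further normalization. Of 45101 probe sets 64 were controls and were left out of gene values. Gene names came from the array's table, and all 9 measured genes matched RefSeq gene IDs. The highest share of identical values between 2 arrays was 0.00222%.

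Genes whose main probe set reached the floor on at least 3 arrays were tested (13335 of 18193) with limma 3.58.1 in R 4.3.3, two-sided, with an intensity trend and Benjamini-Hochberg adjustment. The labels call the replicates biological. Data were simulated for this comparison with 13335 genes, 50 of them changed at each log2 size of 1, 2, 4 and 6. There 2% of changes of size 1 were called, 36% of size 2, 82% of size 4 and 84% of size 6. Among all 105 calls 3 were false. Such shares depend on how many genes change, and that number is not known for these arrays. The number of arrays limits precision. Same-numbered arrays did not deviate together (correlations 0.04, -0.14 and -0.06 across genes), so replicate numbers were not used as pairs. Alternatives covered scaling, filters, probe set choice, the variance trend, blocks and single arrays. The named genes were all members, in each list up to 4 that passed, or the brightest 2 where fewer than 2 passed, plus any single gene that passed, and the 3 nearest profiles. Members and lists were chosen with earlier results of these data known, and the motifs were chosen after the promoter windows had been read.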

Additional observations from a re-analysis of the deposited data

How the results depend on the processing

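Ccnd2 passed with quantile normalization, with median centring, without a filter, with a filter at the 20th percentile, with low values raised to the floor, with probe sets averaged, without the variance trend and with the third replicates as a block. Its count among the 9 genes was 1 in the main comparison and 0 with the replicate block (adjusted p = 0.0605 in limma) and with E18 replicates 1 and 2 averaged (adjusted p = 0.14), where 492 and 63 genes changed against 798. Same-numbered arrays did not deviate together across genes, which cannot exclude pairing, and the third replicates of both groups shared high poly-A controls. In replicates 1 and 2 alone 3 of the 9 passed and 2996 genes changed. Leaving out single arrays gave 0 to 1 of the 9 and 66 to 2770 genes. With adult replicate 1, 2 or 3 left out there were 572, 226 or 2770, and with E18 replicate 1, 2 or 3 left out 69, 66 or 505.

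The Cdkn1b difference turned positive with quantile normalization (0.055), median centring (0.10), probe sets averaged (0.50) and replicates 1 and 2 alone (0.35), and it ran from -0.49 to 0.21 as single arrays were left out, while Ccnd1 ran from -1.20 to 0.049. The signs of Ccnd2, Ccnd3, Cdk4, Cdk6, Cdkn1a, Cdkn2c and Rb1 held in all fits over several arrays (12 alternatives and 6 with 1 array left out). Among the 12, the filters, low values raised to the floor, the variance trend, both blocks and separate probe sets left these differences unchanged. A sign could turn only with another scaling, averaged probe sets, replicates 1 and 2 alone, averaged E18 replicates or an array left out. Tested probe set by probe set, an alternative chosen after seeing the data, 1112 of 28104 probe sets changed (3.96%, against 5.98% of genes), and the main probe set of Ccnd2 passed. The median over all genes was -0.05 with quantile normalization and -0.02 with median centring, against -0.17, and the share of called genes lower in adult was 70.8%, 71.7% and 76.4%. The causes were not tested.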
